A study of Homo sapiens with 6 samples.

Results

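The interleukin-1 (IL-1) family is described here by 10 genes out of the 58174 genes in the files. The members were taken by gene name. They are 5 genes of activating cytokines (IL1A, IL1B, IL18, IL33 and IL36G), 2 genes of receptor antagonists (IL1RN and IL36RN) and 3 genes of receptor chains (IL1R1, IL1RAP and IL1RL1). The RNA came from SiHa, an established cell line of cervical squamous cell carcinoma. In the OV-BRCA1 group (3 samples) the cells carried the plasmid GV230-BRCA1, and in the NC group (3 samples) they carried GV230 without BRCA1. Both plasmids were delivered with Lipofectamine 3000, a lipid reagent, and RNA was taken after 48 h. All cells of a dish were sequenced together, so more RNA per cell and more cells with the RNA cannot be told apart. The comparison asks which genes of the family differed in level once BRCA1 was overexpressed.

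IL-1 alpha and IL-1 beta, made from IL1A and IL1B, bind the receptor chain IL1R1, which then recruits the accessory chain IL1RAP and signals through MYD88 and IRAK kinases to NF-kB. IL1RN encodes the receptor antagonist, which occupies IL1R1 without signalling. IL-33, IL-18 and IL-36 use related receptors, and IL-33 shares IL1RAP with IL-1 through its own receptor IL1RL1 (ST2). Squamous epithelial cells are known for holding IL-1 alpha, IL-18 and IL-33 in the cell and releasing them on damage. IL-1 beta and IL-18 are made as precursors that caspase-1 cuts.

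The values are FPKM, fragment counts scaled to transcript length and to the total of mapped fragments, summed here over the transcripts of a gene. Group differences are log2 fold changes of FPKM + 1, OV-BRCA1 minus NC, tested with limma and Benjamini-Hochberg adjustment over the 16321 genes that reached 0.5 FPKM in 3 or more samples. A gene is called higher or lower at an adjusted p-value below 0.05, and it is a DEG by the study's criterion if its absolute log2 fold change is also above 1. Sample values are given in the order of replicates 1, 2 and 3. The transfected gene BRCA1 stood at 35.7, 40.8 and 34.9 FPKM in the 3 OV-BRCA1 samples and 20.1, 14.9 and 21.7 FPKM in the 3 NC samples. Its log2 fold change was 0.95 (limma adjusted p = 0.00373, standard error 0.14), so the direction of the labels held in every sample. The depth was estimated from the FPKM values as 14.48 to 16.79 M fragments per OV-BRCA1 sample and 15.94 to 20.41 M per NC sample. Within a group, Pearson's r of log2(FPKM + 1) across genes, which are not independent replicates, was 0.985 to 0.986. Of 10 epithelial markers, KRT7, KRT8, KRT17 and KRT18 were abundant, whereas KRT5 and TP63, markers of basal squamous cells, stayed below 0.5 FPKM in all 6 samples and KRT19 and CDH1 below 1 FPKM.

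IL1A and IL1B lie beside each other on chromosome 2 and rose together, and IL1RN closes the same gene cluster. The bases before the RefSeq transcript starts of these 3 genes are shown because they encode both activating ligands and the antagonist of 1 receptor. The sequences were taken from RefSeq windows of 250 bases before the start (GRCh38.p14), written 5′ to 3′ on the gene's strand, and each is printed up to the first base that lies in a GENCODE 29 exon of the gene. IL1RN has several windows, and the printed window lies inside the gene, before an inner start. Matches of IL1RN given below other than AP-1 lie in windows not printed. They cover chr2:112784591-112784743 on the minus strand for IL1A, chr2:112836904-112837029 on the minus strand for IL1B and chr2:113117721-113117892 on the plus strand for IL1RN. Capitals mark the letters TATAAA in IL1A, 239 bases before the RefSeq start, and an AP-1 motif in IL1RN.
IL1A: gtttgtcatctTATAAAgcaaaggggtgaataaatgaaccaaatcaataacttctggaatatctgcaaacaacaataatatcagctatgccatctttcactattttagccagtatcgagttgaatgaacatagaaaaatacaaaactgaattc
IL1B: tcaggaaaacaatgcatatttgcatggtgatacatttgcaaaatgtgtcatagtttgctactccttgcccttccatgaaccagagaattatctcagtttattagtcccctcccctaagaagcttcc
IL1RN: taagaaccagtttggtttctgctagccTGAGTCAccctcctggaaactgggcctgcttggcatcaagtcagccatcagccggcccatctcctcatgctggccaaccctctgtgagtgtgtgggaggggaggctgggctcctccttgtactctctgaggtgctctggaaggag

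Windows were found for 9 of the 10 members, 18 windows in all, with several starts for some genes. IL18 had no window, and the windows of IL33 and IL1RAP are not at the start of their most abundant transcripts. The windows of IL1A reach 97 and 190 bases into the exon of its only transcript in the files. The window of IL1B holds 124 bases of a GENCODE exon. The kappa B consensus of NF-kB was searched on both strands and was in 0 of the 18 windows, against 9.96% of all 35116 RefSeq windows. The AP-1 motif TGANTCA, present in 6.57% of all windows, was found in IL1A, IL1RN and IL1RL1. In IL1A it begins 12 bases before one RefSeq start and 105 and 55 bases before the other. These IL1A matches are in bases not printed, inside the exon of the transcript in the files. The motif begins 223 bases before a start in IL1RN and 191 bases before a start in IL1RL1. Some windows of a gene overlap, so the same bases can be counted more than once. The interferon-stimulated response element, read as GAAA, any 2 bases and GAAA (3.02% of all windows), was found in IL1RN, 122 bases before one of its inner starts. The IL1B window held none of the 4 motifs searched, of which the fourth, TATAAA, is in 10.7% of all windows. Besides IL1A, TATAAA was found on either strand in IL1RN, 32 and 30 bases before a start. It was also found in IL1RL1, 29 bases before a start, and in IL1R1, 229 and 124 bases before a start. A match of letters is a description of the window, and the absence of one concerns these 250 bases alone.

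The levels of the 10 genes spanned a wide range, and the order of the 6 tested genes was the same in both groups. IL18 was far above the rest and lay above 94.1% of the genes tested. IL1RAP (49.3%) and IL1R1 (42.7%) came next, near the middle of the tested genes, followed by IL1B (21.2%), IL1A (12.1%) and IL33 (0.202%). From IL18 down to IL33 no sample of a gene overlapped with a sample of the next gene within either group. IL1RN and IL1RL1 were listed at traces, and IL36G and IL36RN at 0 in all 6 samples.

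**Figure D1:**
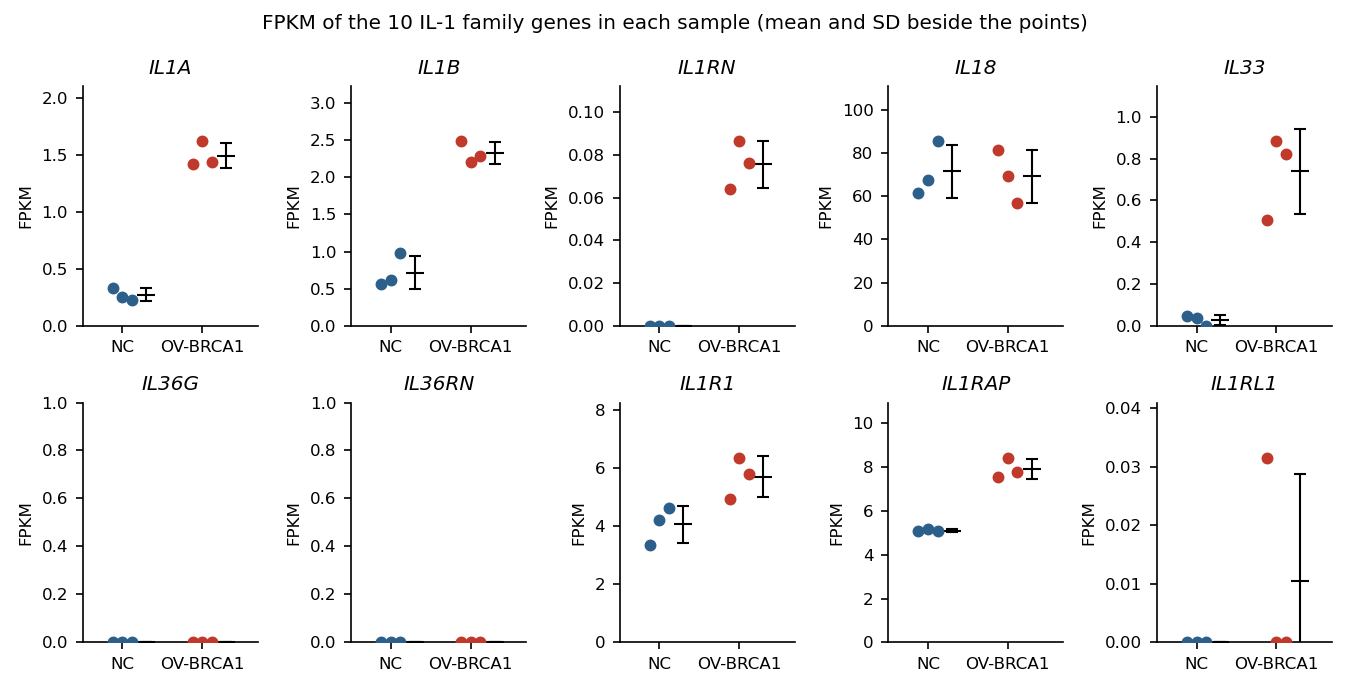
FPKM of each member in the 3 NC and 3 OV-BRCA1 samples, 1 panel per gene with its own linear axis from 0, and the mean with SD beside the points. The OV-BRCA1 samples lie above the NC samples for IL1A, IL1B, IL1RN, IL33, IL1R1 and IL1RAP, the groups overlap for IL18, and IL36G and IL36RN are at 0 throughout.

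Of the 10 members, 6 passed the filter on low values, and 4 of these were higher in the OV-BRCA1 group, namely IL1A, IL1B, IL33 and IL1RAP. None was lower. Of all genes tested, 16.4% were higher and 18.9% lower. IL1A and IL33 passed the filter through their OV-BRCA1 samples alone, so the number of members passing carries no weight of its own. Every OV-BRCA1 sample was above every NC sample in 5 of the 6 tested members, a pattern seen in 23.4% of the genes tested, and in IL1RN, which was not tested. By the study's criterion none of the 6 was a DEG, against 2.89% of all genes upregulated and 1.1% downregulated. Adding 1 to every FPKM compresses the change of low genes. With 0.1 added in place of 1, IL1A, IL1B and IL33 were upregulated DEGs, against 4.68% of all genes, while IL1RAP (0.62), IL1R1 (0.48) and IL18 (-0.05) still fell short of a log2 fold change of 1. The same 3 did so with 0.1 added and no filter on low values, against 2.84% of the genes in that fit.

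IL1A (ENSG00000115008, chromosome 2, 112773915 to 112784590, minus strand) encodes IL-1 alpha, which is active without cleavage and can signal from the cell surface. Its FPKM was 1.42, 1.62 and 1.44 in the 3 OV-BRCA1 samples and 0.337, 0.253 and 0.231 in the 3 NC samples. Every OV-BRCA1 sample was several times above every NC sample. The means were 1.49 ± 0.111 and 0.274 ± 0.0556 (n = 3 each, SD), a ratio of 5.45, and the log2 fold change was 0.97 (limma adjusted p = 5.08e-04, standard error 0.09). At the estimated depth these values rest on 44.2 to 57.8 fragments per OV-BRCA1 sample and 10 to 11.4 per NC sample. Counting error alone gives the ratio of fragments an exact 95% interval of 3.75 to 8.37 around 5.53. IL1A has 1 transcript in the files, so its value does not depend on how fragments were shared between transcripts. With a pseudocount of 0.1 the log2 fold change was 2.10 (limma adjusted p = 7.75e-04, standard error 0.21).

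IL1B (ENSG00000125538, chromosome 2, 112829751 to 112836903, minus strand) encodes the IL-1 beta precursor. Its FPKM was 2.48, 2.20 and 2.29 in the OV-BRCA1 samples and 0.565, 0.612 and 0.974 in the NC samples. The groups did not overlap, and NC sample 3 stood above the other NC samples. The means were 2.33 ± 0.144 and 0.717 ± 0.224 (n = 3 each, SD), a ratio of 3.24, with a log2 fold change of 0.96 (limma adjusted p = 0.00158, standard error 0.12). Without NC sample 3 the log2 fold change was 1.07, past the criterion. Of the 8 IL1B transcripts, IL1B-201, which codes for the 269 residues of the precursor, held most of the signal. It stood at 2.30, 1.95 and 1.87 FPKM in the OV-BRCA1 samples and at 0.289, 0.376 and 0.567 in the NC samples. In the fit over 50925 transcripts its log2 fold change was 1.11 (limma adjusted p = 0.0144, standard error 0.14), where 2.85% of transcripts were higher by adjusted p-value. A retained-intron transcript, IL1B-206, contributed 0.0926 to 0.283 FPKM in the NC samples and 0.106 to 0.167 in the OV-BRCA1 samples. Another, IL1B-208, contributed 0.0377 to 0.123 FPKM in the NC samples and 0.00285 to 0.144 in the OV-BRCA1 samples.

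IL33 (ENSG00000137033, chromosome 9, 6215786 to 6257983) encodes a nuclear cytokine that acts as an alarm signal when a cell breaks. It stood at 0.508, 0.882 and 0.824 FPKM in the OV-BRCA1 samples and at 0.0486, 0.0364 and 0 in the NC samples. IL33 was thus close to undetected in the NC group and low, yet present, in every OV-BRCA1 sample. The log2 fold change was 0.75 (limma adjusted p = 0.00366, standard error 0.11) and 2.70 (limma adjusted p = 0.00253, standard error 0.36) with a pseudocount of 0.1. The values correspond to about 85 fragments over the OV-BRCA1 samples and 4 over the NC samples, a ratio of 25.1 with an exact 95% interval of 9.44 to 94.1 from counting error. The most abundant of its 5 transcripts, IL33-201 (270 codons), stood at 0.384, 0.784 and 0.755 FPKM against 0.0486, 0.0364 and 0.

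IL18 (ENSG00000150782, chromosome 11, 112143251 to 112164117, minus strand) encodes the IL-18 precursor and was the most abundant of the 10 genes. Its FPKM was 81.3, 69.3 and 56.6 in the OV-BRCA1 samples and 61.5, 67.6 and 85.3 in the NC samples. The groups overlapped throughout. The log2 fold change was -0.05 with a 95% interval of -0.45 to 0.35 (limma adjusted p = 0.834). Changes within that interval, in either direction, are not excluded. The sign of this value turned to 0.08 without OV-BRCA1 replicate 3 or without NC replicate 3.

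The 6 IL18 transcripts were less even than their sum. IL18-202, which codes for 189 residues, stood at 30.3 FPKM in OV-BRCA1 sample 1 and at 33.0 in NC sample 3, and at 2.52 to 5.15 in the other 4 samples. IL18-201, which codes for the full precursor of 193 residues, stood at 24.9, 20.4 and 18.4 FPKM against 16.6, 12.3 and 16.3, with the OV-BRCA1 samples above the NC samples. The retained-intron transcript IL18-206 was lower in every OV-BRCA1 sample, at 3.41, 6.59 and 5.63 FPKM against 9.36, 12.2 and 8.11. Neither IL18-201 (log2 fold change 0.47, limma adjusted p = 0.179) nor IL18-206 (-0.83, adjusted p = 0.136) passed the test over all transcripts, in which 5.47% passed in either direction. Retained-intron transcripts, IL18-203 included, held 25.0% to 53.3% of the IL18 FPKM in the OV-BRCA1 samples and 35.7% to 71.7% in the NC samples, with overlap.

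**Figure D2:**
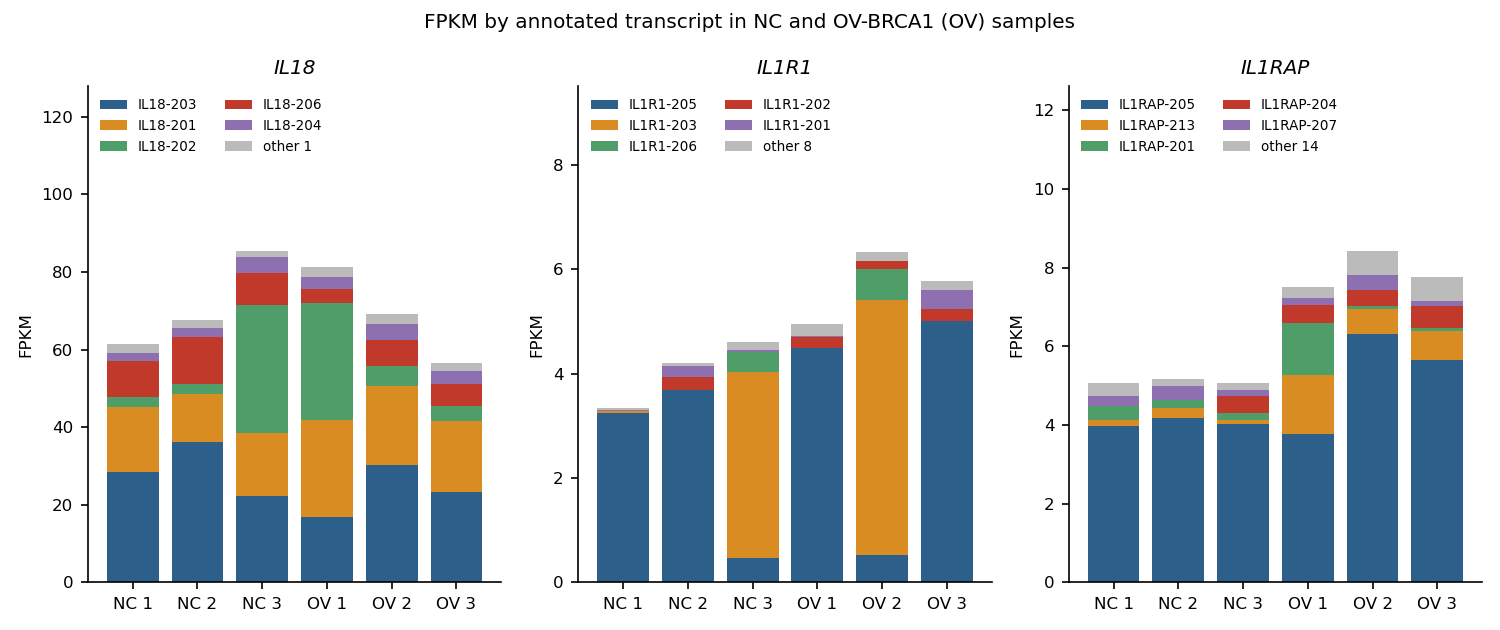
Stacked bars of FPKM by GENCODE transcript for IL18, IL1R1 and IL1RAP in the 3 NC and 3 OV-BRCA1 (OV) samples, with the 5 transcripts of highest mean named and the rest summed. The main IL1R1 transcript differs between samples of the same group, whose bars run from 3.35 to 4.61 FPKM in NC and from 4.94 to 6.34 FPKM in OV-BRCA1, and IL18-202 is high in NC sample 3 and OV-BRCA1 sample 1.

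The antagonists were near or at 0. IL1RN (ENSG00000136689, chromosome 2, 113107214 to 113134016) was at 0.064, 0.0863 and 0.0763 FPKM in the OV-BRCA1 samples, an estimated 1.95, 2.79 and 2.12 fragments, with every NC sample listed at 0. All of this signal was assigned to 1 of 9 transcripts. IL1RN did not pass the filter on low values. In the fit without the filter its adjusted p-value was 0.00993 (limma, where 7.28% of genes were higher), for a difference of 2 to 3 fragments per sample. IL36RN, the antagonist of the IL-36 receptor, and IL36G, an IL-36 cytokine of keratinocytes, were listed at 0 for all of their 4 and 3 transcripts.

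The receptor chains IL1RAP and IL1R1 were present in both groups, and IL1RL1 was near 0. IL1RAP (ENSG00000196083, chromosome 3, 190514051 to 190659750), the accessory chain, stood at 7.52, 8.41 and 7.75 FPKM in the OV-BRCA1 samples and at 5.07, 5.16 and 5.06 in the NC samples. The groups did not overlap, and the NC samples were almost equal. The means were 7.89 ± 0.464 and 5.09 ± 0.0541 (n = 3 each, SD), a ratio of 1.55, and the log2 fold change was 0.54 (limma adjusted p = 0.00215, standard error 0.07). IL1RAP shares exon sequence with AC108747.1 on the same strand.

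IL1RAP makes a membrane-bound form that signals and a soluble form that does not. The 4 transcripts that code for 570 residues, the length of the membrane-bound chain, summed to 6.80 ± 0.365 FPKM after BRCA1 transfection and 4.49 ± 0.200 with GV230 alone (n = 3 each, SD). They made up 85.2% to 87.6% and 85.2% to 91.3% of the IL1RAP FPKM. The 2 transcripts that code for the soluble form of 356 residues stood at 0.363, 0.752 and 0.351 FPKM against 0.371, 0.389 and 0.176, with overlap between the groups. The most abundant single transcript, IL1RAP-205, had a log2 fold change of 0.28 (limma adjusted p = 0.454 over all transcripts), and did not pass the test that the sum passed.

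IL1R1 (ENSG00000115594, chromosome 2, 102064544 to 102179874), the chain that binds IL-1, stood at 4.94, 6.34 and 5.77 FPKM in the OV-BRCA1 samples and at 3.35, 4.21 and 4.61 in the NC samples. The groups did not overlap, but OV-BRCA1 sample 1 and NC sample 3 were close. The log2 fold change was 0.41 (standard error 0.13) with an adjusted p-value of 0.0527 from limma, just short of the threshold. It passed with median-of-ratios scaling (limma adjusted p = 0.0418), with the replicate block (0.0399), with a filter at 1 FPKM (0.0492) and without OV-BRCA1 replicate 1 (0.0495), and over 15 alternatives it ranged from 0.0399 to 0.834. IL1R1 overlaps IL1R1-AS1 on the opposite strand.
The transcript that held most of the IL1R1 signal differed between samples of the same group. IL1R1-205, which codes for the full receptor of 569 residues, stood at 4.50, 0.526 and 5.01 FPKM in the OV-BRCA1 samples and at 3.25, 3.69 and 0.461 in the NC samples. In OV-BRCA1 sample 2 and NC sample 3 the signal sat in IL1R1-203 instead, at 4.89 and 3.57 FPKM, a transcript annotated with 173 codons that was at 0 to 0.0339 FPKM in the other 4 samples. These single-transcript values therefore differ more within a group than the gene sums do. The gene sums depend on this sharing as well, since IL1R1-203 has 3544 bases and IL1R1-205 has 5143. The estimated IL1R1 fragments, not scaled for depth, were 375, 361 and 395 in the OV-BRCA1 samples and 270, 382 and 323 in the NC samples. OV-BRCA1 sample 2 thus had the highest FPKM of its group on the fewest fragments.

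IL1RL1 (ENSG00000115602), the IL-33 receptor, was at 0.0315 FPKM in OV-BRCA1 sample 1, about 2 fragments, and listed at 0 in the other 5 samples. IL1RL1 shares exon sequence with IL18R1 on the same strand.

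**Figure D3:**
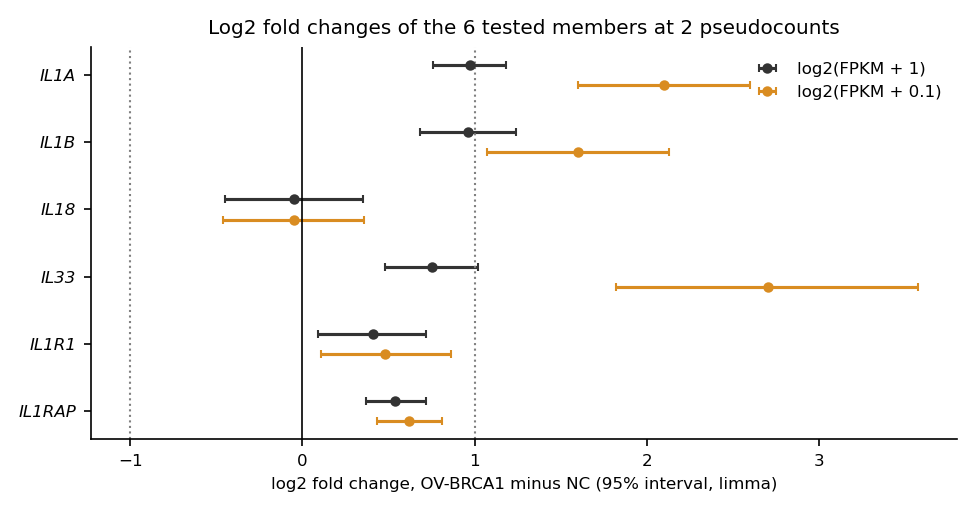
Log2 fold changes (OV-BRCA1 minus NC) with 95% intervals from limma, not adjusted for the number of genes, for the 6 tested members, on log2(FPKM + 1) in dark and log2(FPKM + 0.1) in orange, and dotted lines at -1 and 1. IL1A, IL1B and IL33 move from below to above 1 with the smaller pseudocount, whereas IL18, IL1R1 and IL1RAP hardly move.

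Position on chromosome 2 did not enter the choice of members. From IL1A to IL1RN, both included, there are 15 annotated genes, 9 of them protein-coding, and IL1A and IL1B were the genes that passed the filter there, IL1A through its OV-BRCA1 samples alone. The start of IL1B lies 52.3 kb from that of IL1A. Beyond them, IL36G, IL36A, IL36B, IL36RN and IL1F10 were at 0 in all 6 samples, and IL1RN, with its start 323 kb from that of IL1A, had the traces given above. IL37, an anti-inflammatory member named after its values were seen, stood at 0.214, 0.123 and 0 FPKM in the OV-BRCA1 samples and at 0.306, 0.861 and 0.310 in the NC samples, too low for the filter. Of the 7 protein-coding genes within 200 kb outside the cluster, 6 were tested and 2 were higher, against 16.4% of all genes tested, POLR1B (log2 fold change 0.94, limma adjusted p = 0.00473) and SLC20A1 (0.40, adjusted p = 8.69e-04). CKAP2L, which lies next to IL1A with its start 19.9 kb away, was at 5.32 ± 0.960 and 5.85 ± 0.227 FPKM (SD, n = 3 each, limma adjusted p = 0.463).

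The receptor genes form a second cluster on chromosome 2, from IL1R2 to IL18RAP. Of its 6 protein-coding genes, 2 were tested. IL18R1, the binding chain of the IL-18 receptor, was higher, at 1.94, 2.18 and 1.68 FPKM against 0.877, 1.01 and 1.32 (log2 fold change 0.50, limma adjusted p = 0.0186, standard error 0.12), and IL1R1 is given above. IL1RL2, the IL-36 receptor chain, did not reach the filter, at 0.466, 0.416 and 0.323 FPKM against 0.162, 0.159 and 0.0972, and was named after its values were seen. The decoy receptor gene IL1R2 was listed at 0 in all 6 samples. IL18RAP, the signalling partner of IL18R1, was at 0.0187 to 0.0702 FPKM over both groups.

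**Figure D4:**
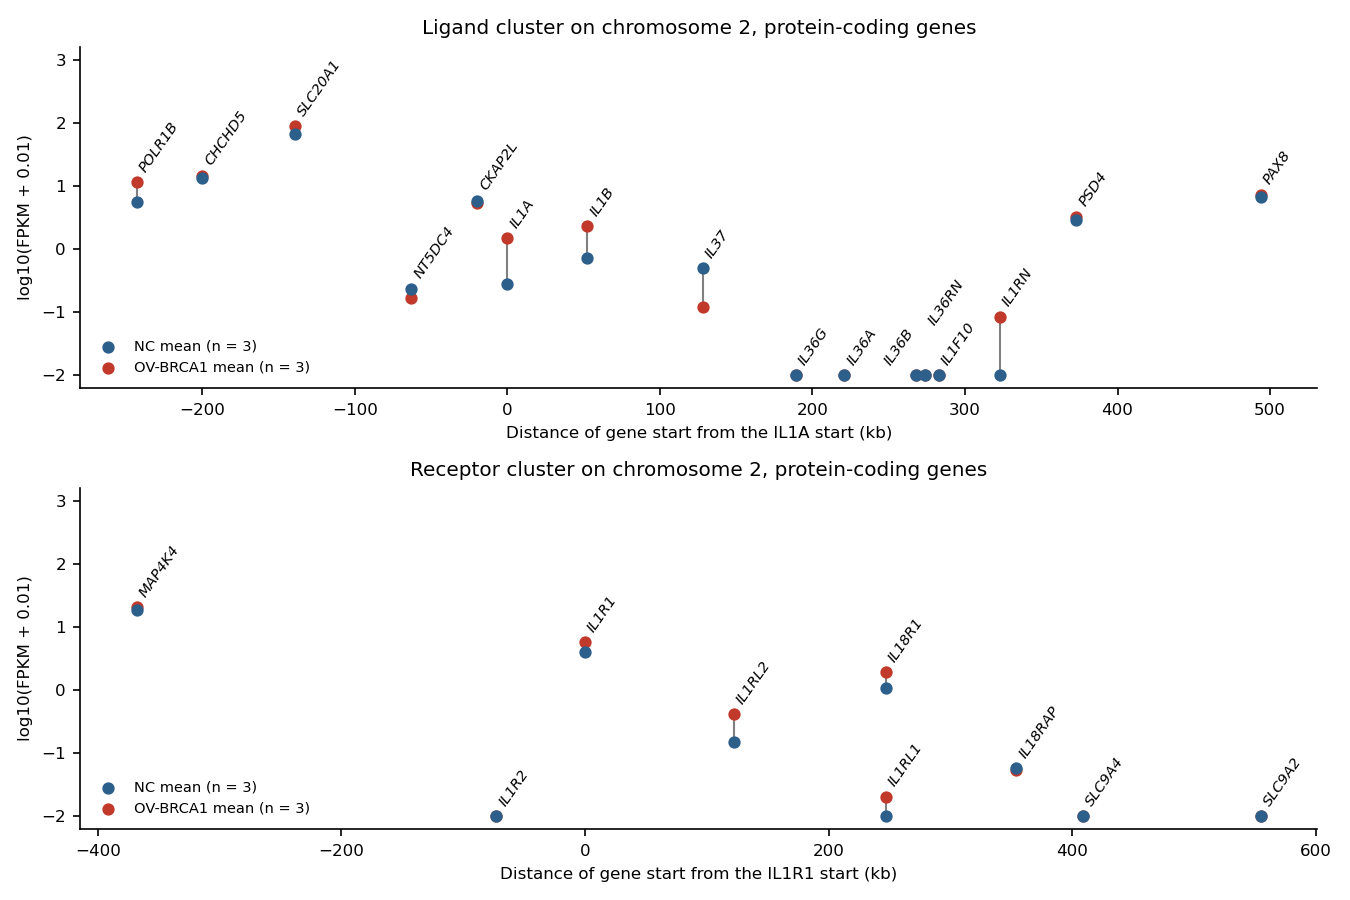
Group means (n = 3 each) as log10(FPKM + 0.01) of the protein-coding genes in and within 200 kb of the ligand cluster (top) and the receptor cluster (bottom), against the distance of each gene's start from that of IL1A or IL1R1 in kb. IL1A and IL1B are separated between groups beside a nearly unmoved CKAP2L, and points at -2 are genes at 0 FPKM.

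The profiles most like those of IL1A and IL1B, the members with the largest log2 fold changes at a pseudocount of 1 (at 0.1 that of IL33 was larger), were looked up among the 16320 other tested genes by the root mean square difference of centred log2(FPKM + 1) over the 6 samples. For IL1A the nearest were GAS5 (0.0395), ERAP1 (0.042) and HIST2H3A (0.0422). For IL1B they were RSPO3 (0.0622), PML (0.0642) and POLR1B (0.067), the last of which lies 243 kb from the IL1A start. All 6 points share their libraries and fall into the 2 groups, so this likeness is mainly that of the group difference.

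Among the other genes of the family, 2 of 12 were tested, IL18R1 and IL18BP. IL18BP, which encodes the secreted inhibitor that binds IL-18, stood at 6.34, 6.69 and 6.72 FPKM in the OV-BRCA1 samples and at 4.08, 6.56 and 5.86 in the NC samples, with overlap (log2 fold change 0.24, limma adjusted p = 0.263). It overlaps NUMA1 on the opposite strand, and the use of strand is not given in the sources used here.

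Of 22 genes that process and release the IL-1 cytokines, 14 were tested, of which 8 were higher, 3 were lower and 3 did not pass, against 16.4% higher and 18.9% lower over all genes tested, with a median log2 fold change of 0.44 against -0.04 over all genes tested. AIM2, CARD17 and CTSS passed the filter through their OV-BRCA1 samples alone, so these counts carry no weight of their own. The upregulated DEGs were AIM2, a sensor of DNA in the cytosol that assembles an inflammasome (log2 fold change 2.63, limma adjusted p = 4.87e-05), CARD17 (2.54), CTSS, the protease cathepsin S (1.43), CARD16 (1.40) and CASP1 (1.25). CASP1, the protease that cuts pro-IL-1 beta and pro-IL-18, rose from 24.6 ± 1.27 to 59.9 ± 0.706 FPKM (n = 3 each, SD). AIM2 was at 6.64, 5.48 and 6.59 FPKM against 0.275, 0 and 0.245. CARD16 and CARD17 resemble the CASP1 recruitment domain and share exon sequence with each other, so their values are uncertain. The adaptor PYCARD was lower (3.08 ± 0.183 against 4.01 ± 0.325 FPKM, log2 fold change -0.30, limma adjusted p = 0.0400) and overlaps PYCARD-AS1 on the opposite strand, and NLRP3 was at 0 in all samples but OV-BRCA1 sample 2, at 0.0288 FPKM.

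Of 26 genes of the signalling chain behind IL1R1, 24 were tested, of which 5 were higher, 1 was lower and 18 did not pass, against 16.4% higher and 18.9% lower over all genes tested, with a median log2 fold change of 0.13. The only DEG was IRAK2, a kinase of the receptor complex, at 7.77, 7.73 and 7.85 FPKM in the OV-BRCA1 samples and 2.39, 3.44 and 2.85 in the NC samples (log2 fold change 1.18, limma adjusted p = 6.13e-04, standard error 0.11). MYD88, the adaptor that all these receptors share and the one gene of this list with a log2 fold change above 1 that did not pass, was uneven within groups, at 41.5, 52.1 and 14.0 FPKM against 8.03, 5.54 and 19.5 (log2 fold change 1.60, limma adjusted p = 0.0810, standard error 0.59). MAP3K3, a kinase of the pathway, was lower (log2 fold change -0.60, limma adjusted p = 0.00179) and overlaps LIMD2 on the opposite strand.

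Of 25 genes known to respond to IL-1 through NF-kB, 22 were tested, of which 19 were higher, none was lower and 3 did not pass, and 15 were upregulated DEGs, against 16.4% higher and 2.89% upregulated over all genes tested, with a median log2 fold change of 1.86. CSF3, an upregulated DEG among them, passed the filter through its OV-BRCA1 samples alone. MMP1 reached 0.5 FPKM in 2 of its NC samples, too few to pass without its OV-BRCA1 samples. These counts therefore carry no weight of their own. The largest were the chemokine genes CXCL8 (log2 fold change 4.21) and CCL20 (3.98), the matrix protease genes MMP1 (3.17) and MMP3 (3.02), the prostaglandin synthase gene PTGS2 (2.90) and CXCL1 (2.88). CCL20 rose from 1.24 ± 0.502 to 33.9 ± 1.33 FPKM (n = 3 each, SD). MMP1 and MMP3 overlap WTAPP1, TNFAIP3 overlaps AL357060.1 and SOD2 overlaps WTAP, all on the opposite strand. ZC3H12A overlaps MIR6732 on the same strand. The genes of this list that were higher without being DEGs were TNFAIP3 (log2 fold change 0.76), TNIP1 (0.89), SOD2 (0.81) and ZC3H12A (0.39). The 3 that did not pass were NFKBIA (-0.07, limma adjusted p = 0.660), NFKBIZ (0.24, limma adjusted p = 0.0801) and LCN2 (0.01, limma adjusted p = 0.967). These genes also respond to other signals, and the list was written with earlier results of these data known.

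**Figure D5:**
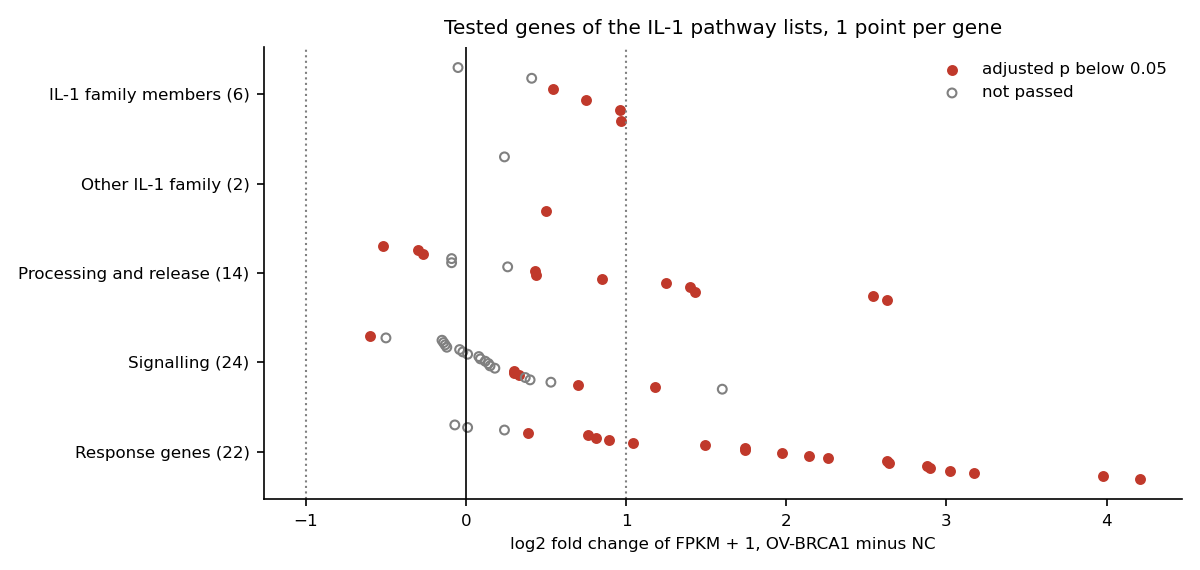
Log2 fold change of FPKM + 1 (OV-BRCA1 minus NC) of each tested gene in the members and the 4 other lists, with the number tested in parentheses, filled where the adjusted p-value was below 0.05 and dotted lines at -1 and 1. The response genes reach 4.21, most signalling genes lie near 0, and the members lie between -0.05 and 0.97.

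IL-1 cytokines are also made by leukocytes, so their markers were measured in the same samples. Of 12 leukocyte markers 9 were below 0.5 FPKM in all 6 samples, with PTPRC, the marker of all leukocytes, listed at 0. The list summed to 31.5 to 37.4 FPKM in the OV-BRCA1 samples and 22.7 to 24.6 in the NC samples. That sum rests on CD68, a lysosomal gene not limited to leukocytes that shares exon sequence with AC016876.2 on the same strand, which was higher (26.3 ± 3.73 against 3.43 ± 0.717 FPKM), and on CD14, which was lower (7.79 ± 1.20 against 19.4 ± 1.34 FPKM, SD, n = 3 each). Of 9 stromal and endothelial markers 7 were below 0.5 FPKM in all 6 samples. That list summed to 5.13 to 6.63 FPKM in the OV-BRCA1 samples and 9.08 to 10.7 in the NC samples. The epithelial list summed to 3323 to 3497 FPKM and 3833 to 3853 FPKM. Its members were uneven, since KRT17 was lower (1033 ± 90.3 against 1434 ± 8.67 FPKM, log2 fold change -0.48), while EPCAM (1.12), KRT18 (0.39) and KRT8 (0.20) were higher by limma adjusted p-value. KRT8 and KRT18 overlap each other on opposite strands. The part of these marker differences in the values of the IL-1 family was not tested. The labels name no batch, so the handling of the dishes and the plasmid cannot be told apart.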

How the data were processed

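mRNA was sequenced in 6 samples of SiHa cells, 3 per group. The authors deposited 1 FPKM value per transcript and sample, computed after reads of poor quality had been filtered out. The submitters' processing notes name FastQC, HISAT2 and hg38. The quantification tool, the annotation and the use of strand are not given in the sources used here. Genes were named and placed with GENCODE 29 (GRCh38), which held 198868 of the 199167 transcripts. The 6 sample files were identical to the series table.

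FPKM was summed per gene and log2(FPKM + 1) was tested with limma 3.58.1 (R 4.3.3, trend, not robust). The study's count test needs counts, which these files do not hold. Depth was estimated from 14216 genes with a single transcript. Only 32.6% to 37.7% of low values lay within 0.1 of a whole fragment, so whole reads were not recovered, and intervals from estimated fragments cover counting error only. The labels do not say that samples came from separate cultures, although the paper calls them biological replicates. The script was first checked on data with known changes.

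The members, gene lists and tests were chosen with earlier results of these data known. Named genes were all members, up to 6 DEGs of each other list with the largest change, tested genes of the family and the 3 nearest profiles of 2 members. POLR1B, SLC20A1 and CKAP2L as cluster neighbours, and IL1RL2, IL37, IL1R2, IL18RAP, IL36A, IL36B, IL1F10, PYCARD, NLRP3, MYD88, MAP3K3, TNFAIP3, TNIP1, SOD2, ZC3H12A, NFKBIA, NFKBIZ, LCN2, CSF3 and the markers, were named beyond that rule. Alternatives were the pseudocount, the filter, the scaling, the replicate block, single transcripts and each sample left out. Tables were made with Python 3.11.15.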

Additional observations from a re-analysis of the deposited data

How the results depend on the processing

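IL1A, IL1B and IL33 had an adjusted p-value below 0.05 (limma) under every alternative in which they were tested, and none of them changed direction. The fits with a sample left out kept the genes that the filter had chosen on all samples. IL1A and IL33 would miss that filter without any 1 of their OV-BRCA1 samples, so passing those fits carries no weight of its own for them. Whether they met the criterion of an absolute log2 fold change above 1 depended on the pseudocount. With 0.1 in place of 1, 3 members met it, IL1A (2.10), IL1B (1.60) and IL33 (2.70), as did 1280 of all genes. With 0.1 and no filter, chosen after seeing the data, the same 3 members met it with the same values, as did 1487 of all genes. With the adjusted p-value alone, 4 members passed, at log2 fold changes of 0.97 (IL1A), 0.96 (IL1B), 0.75 (IL33) and 0.54 (IL1RAP), as did 37 genes of the other 4 lists and 5764 of all genes, against 21 and 651 by the criterion. With the most abundant transcript standing for the gene, 1 member met the criterion, IL1B (1.11), IL1RAP lost its adjusted p-value (0.28, adjusted p = 0.329 from limma), and IL33 could not be tested. IL33 was also not tested with a filter at 1 FPKM. Leaving out each sample in turn gave 0 to 1 members past the criterion, with IL1A between 0.93 and 1.00 (above 1 without NC replicate 1), IL1B between 0.90 and 1.07, IL33 between 0.69 and 0.85, IL1RAP between 0.50 and 0.57, IL1R1 between 0.30 and 0.49 and IL18 between -0.17 and 0.08, where the sign turned. BRCA1 was between 0.80 and 1.06. The lists gave 21 to 22 and all genes 646 to 701. The replicate block left IL1A at 0.97 and IL1B at 0.96 with 646 genes past the criterion and changed the adjusted-p call of IL1R1 (0.0399) among the members. Same-numbered samples did not deviate together across genes, with r between -0.02 and 0.02, against -0.05 to 0.03 for other pairs. Such an r over all genes cannot exclude a pairing that touches few genes. Scaling moved the median log2 fold change of all genes from -0.04 to between -0.07 and -0.01. Depth limits IL1RN, IL1RL1, and IL33 in the NC group, where a value rests on 0 to 3 fragments per sample.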
